A study of Homo sapiens with 18 samples.

Results

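RNA of H1299 cells was compared between cells induced to make a tagged p53 and non-induced cells, both kept in DMSO, the solvent control of the study, for 24 h. The comparison uses 6 of the 18 libraries of the series, 3 induced and 3 non-induced, chosen by their labels alone. The line H1299 comes from a human lung tumour of the non-small cell kind and makes no p53 protein of its own. The induced cells carry a doxycycline-inducible wild-type p53 joined to the tag FKBP12F36V, a mutant of the immunophilin FKBP12, and to an HA epitope. The other 12 libraries are induced and non-induced cells given one of a pair of AceTAG compounds, which are made to bring p300/CBP or PCAF/GCN5 to the tagged protein. They enter here as separate libraries in which the same induction was measured. The labels name the tagged p53 for induced samples only, do not say whether non-induced cells carry the construct or received doxycycline, and do not say whether replicates came from separate cultures. Induction and exposure to doxycycline therefore cannot be told apart, and every p-value measures the spread between these libraries, which may be technical.

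The protein p53 is a transcription factor that binds DNA as a tetramer and switches on genes that halt the cell cycle, repair DNA, alter metabolism or start cell death. Among its targets is MDM2, the ubiquitin ligase that marks p53 for destruction, so that the response limits itself. Another is CDKN1A, whose product p21 inhibits cyclin-dependent kinases. Their inhibition leaves the pocket proteins RB1, RBL1 and RBL2 in a form that represses genes of DNA replication and mitosis, through E2F sites and, within the DREAM complex, through a promoter element called CHR. The comparison addresses which genes respond to the wild-type tagged protein in this line with no compound added.

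The DMSO libraries held 9055888 to 26364769 counts, and the shallowest was the third non-induced one. A count of 0 allows a level of up to 3 counts, or 0.331 CPM in that library, and floors of this kind cover counting error only. Levels are given in CPM, a gene's counts for every 1000000 counts of its library, and changes are log2 fold changes ± SE, induced minus non-induced, with 3 libraries a side. A gene was called when its adjusted p in the edgeR quasi-likelihood test was below 0.05. The third induced library stood apart: 209 genes differed over 2-fold from the mean of its partners, which differed from each other in 25, and mitochondrially encoded RNA made up 0.714% of its counts against 1.84% and 2.14%. Counts of called genes are therefore given with and without it. Of the marker lists for other cells, the lung lineage, leukocyte and endothelial lists had no member above the filter on low counts. The summed level of the 7 lung lineage markers ran from 0.379 to 0.848 CPM over the 6 libraries, with 3 markers at 0 in all 6. The 7 leukocyte markers summed to 0.0424 to 0.624 CPM, with PTPRC at 0 throughout, and the 6 endothelial markers to 0.170 to 0.773 CPM. Of the 7 fibroblast markers 2 were above the filter, and the list summed to 1.10 to 3.01 CPM. The 7 epithelial markers were mixed and summed to 322 to 405 CPM. Their defining members EPCAM and CDH1 had at most 0.120 and 0.178 CPM in any library, and 4 of the 7 were below the filter. The keratin KRT18 stood at 259.7, 252 and 261 CPM in the non-induced libraries and 237, 234 and 315 CPM in the induced ones and KRT8 at 87.6, 95.6 and 96.4 CPM in the non-induced libraries and 98.7, 87.5 and 89.3 CPM in the induced ones, with CLDN4 the third member tested, and 0 of these 3 were called in edgeR or DESeq2 or at an unadjusted p below 0.05. The sum is nearly all keratin. VIM, a mesenchymal intermediate filament, stood at 3607, 3729 and 3876 CPM in the non-induced libraries and 2836, 2804 and 2366 CPM in the induced ones.

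FKBP1A, which encodes the FKBP12 that the tag derives from, stood at 220.3, 223 and 219 CPM in the non-induced libraries and 225, 230.2 and 196 CPM in the induced ones. The groups overlapped, and the difference of -0.05 ± 0.07 did not pass (adjusted p = 0.649).

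Across the transcriptome 905 genes rose (6.01% of 15055 tested) and 1170 fell (7.77%), and without the third induced library 2357 rose (15.3%) and 2644 fell (17.2%) of 15400. The rises reached further than the falls. Of the risers 156 exceeded 2-fold, 48 exceeded 4-fold and 24 exceeded 8-fold. The falls exceeded 2-fold in 141 genes, 4-fold in 7 and 8-fold in 0. The median size was 0.50 among risers and 0.54 among genes that fell. Induced libraries lay above all non-induced ones without overlap in 3185 genes (21.2%) and below them in 2406 (16.0%). Leaving out 1 other library lowered the count of 2075 called genes, to 1372 without the first induced one and to 869 to 1012 without a non-induced one, and a fit of all 6 groups gave 3455. Without the third induced library the edgeR adjusted p of MDM2 was 2.15e-47 against 4.33e-08 with it, at the same change of 3.06. For CDKN1A it was 2.28e-37 against 1.06e-06. Why these p-values were so much smaller with 1 library fewer was not tested, so counts without that library are descriptions.

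**Figure D1:**
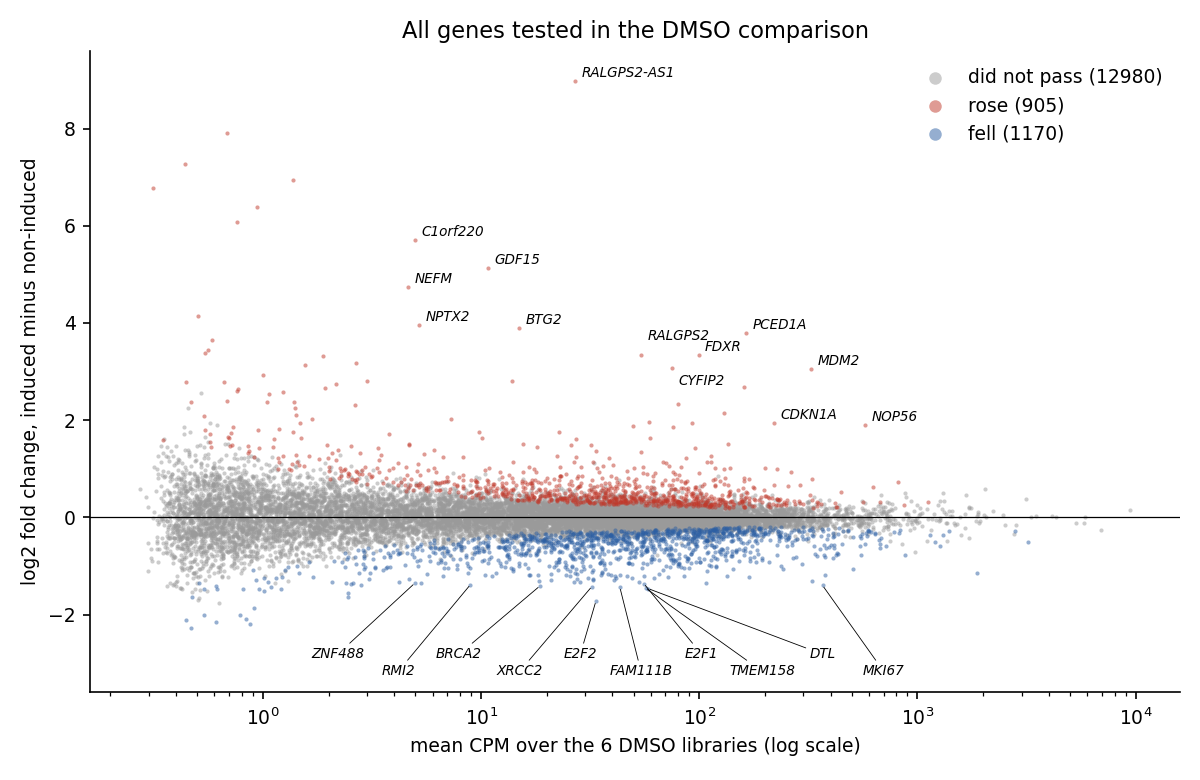
Log2 fold change on induction in DMSO against the mean level over the 6 libraries (CPM, log scale) for 15055 genes, with those called coloured. Rises spread to above 8-fold in 24 genes, while no fall reaches that size. Fitted changes of genes near 0 counts in non-induced cells, such as RALGPS2-AS1, are imprecise.

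Promoter sequences were compared between the genes that rose, those that fell and the lists. The windows are from RefSeq (GRCh38.p14) and run from 250 bases before to 50 after a gene's start. Of the 15055 genes tested, 10970 had a window under the same symbol. Short motifs of 3 kinds were searched on both strands, and matches of different motifs may overlap: the CHR element (TTTGAA or TTCGAA), an E2F element (TTTGGCGC, TTTCGCGC or TTTCCCGC) and the NF-Y element (CCAAT). The stretches printed here show matches that lie before the start in genes that fell and belong to the lists of DNA replication or mitosis, with the match in capitals. DTL, CDT1 and RFC3, which act at replication origins and forks, carry an E2F match.
DTL, chr1:212035725-212035747, plus strand: agagcgtgacgtcagTTTGGCGC
CDT1, chr16:88803739-88803776, plus strand: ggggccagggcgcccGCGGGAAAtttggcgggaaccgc
RFC3, chr13:33818079-33818116, plus strand: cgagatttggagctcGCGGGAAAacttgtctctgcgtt
The next 4 genes act at the kinetochore, in cytokinesis and at entry into mitosis, and carry a CHR match.
CENPA, chr2:26786023-26786055, plus strand: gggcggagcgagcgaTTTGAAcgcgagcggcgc
BUB1B, chr15:40161031-40161066, plus strand: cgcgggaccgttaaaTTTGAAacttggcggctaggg
KIF23, chr15:69414279-69414314, plus strand: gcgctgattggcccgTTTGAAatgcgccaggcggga
CDK1, chr10:60778155-60778190, plus strand: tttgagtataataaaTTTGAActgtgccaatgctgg

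The shares differed between the lists. A CHR match lay in 35 of 47 windows of the mitosis lists (74.5%), in 6 of 69 windows of the replication and recombination lists (8.70%) and in 10.9% of all windows of tested genes. An E2F match lay in 27 of 69 windows of the replication and recombination lists (39.1%), in 3 of 47 mitotic ones (6.38%) and in 4.68% of tested genes. The NF-Y match, a short motif found in 36.6% of tested genes, lay in 34 of the 47 mitotic windows (72.3%) and in 36 of the 69 others (52.2%). Over all genes that fell, 21.1% had a CHR match and 11.7% an E2F match, against 6.81% and 3.89% of genes that rose. Among all 35116 windows of the table the shares were 16.4% for CHR and 2.74% for E2F. Matches of this length are descriptions of the letters and not of binding.

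**Figure D2:**
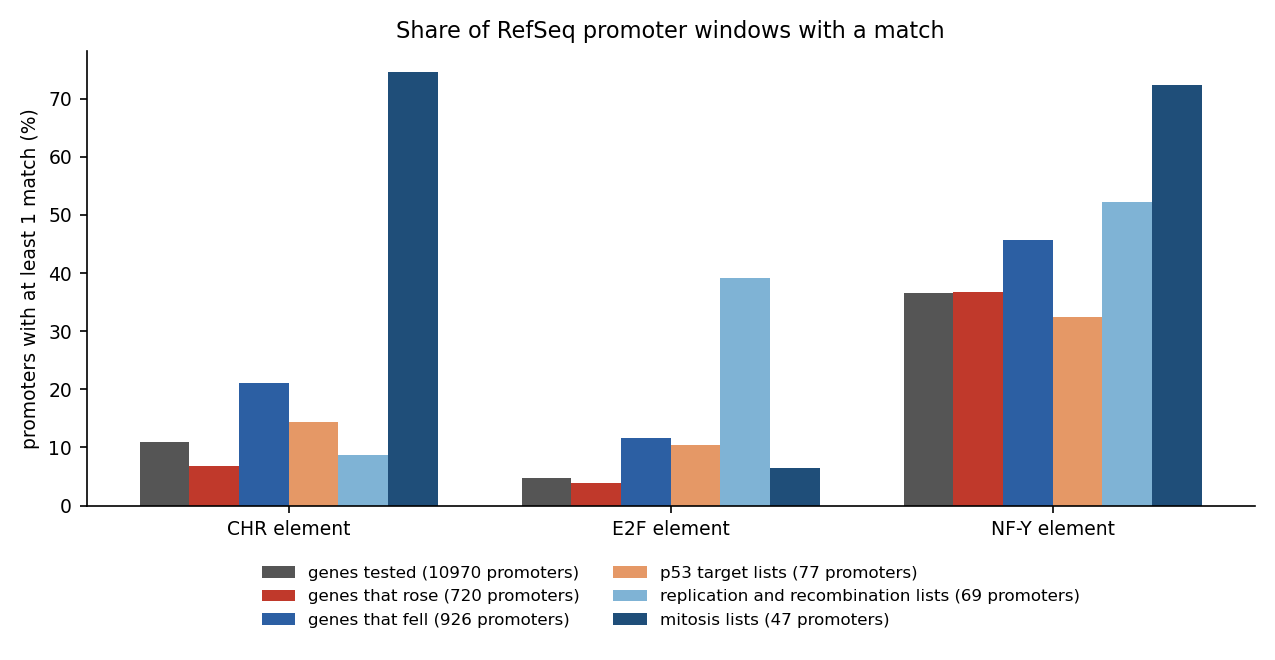
Percent of RefSeq promoter windows with at least 1 match to each element, for all tested genes, for genes that rose or fell and for lists. CHR matches stand at 74.5% in the mitosis lists and E2F matches at 39.1% in the replication and recombination lists.

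A p53 element was scored as 20 bases with at most 2 mismatches to the consensus. The C and G of both cores had to match, while the bases between them could differ. A match lay in 0.694% of windows of genes that rose (5 of 720), in 0 of 926 of genes that fell and in 0.182% of tested genes. One of the 5 was AEN, a nuclease that takes part in p53-driven apoptosis.
AEN, chr15:88621291-88621339, plus strand: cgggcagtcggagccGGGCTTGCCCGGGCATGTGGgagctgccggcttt
AEN rose from 51.6, 51.1 and 51.7 CPM to 104, 100.5 and 96.8 CPM, by 0.94 ± 0.06 (adjusted p = 2.96e-05). The windows end 250 bases before the start, so elements farther away or in introns are outside them.

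Among the regulators of p53 the largest rise was that of MDM2. MDM2 (ENSG00000135679, chr12:68808177-68850686, plus strand, GRCh38 by the match of gene positions) stood at 69.1, 69.2 and 67.2 CPM in the non-induced libraries and 569, 605 and 571 CPM in the induced ones, 8.33-fold higher on induction (3.06 ± 0.06, adjusted p = 4.33e-08). Every induced library was several times above every non-induced one. CPM, a carboxypeptidase gene that overlaps MDM2 on the other strand, fell by 0.54 ± 0.07. PPM1D, the phosphatase that dephosphorylates p53, rose by 0.71 ± 0.09. CCNG1, whose product recruits a phosphatase to MDM2, rose by 0.78 ± 0.06, and TP53INP1, a co-factor of p53 in stress, went from 24.5, 25.7 and 27.9 CPM to 138, 139.5 and 123 CPM (2.34 ± 0.08). MDM4, the relative of MDM2 that holds p53 inactive, overlapped between the groups (11.8, 9.95 and 12.8 CPM against 10.8, 11.7 and 10.5 CPM, adjusted p = 0.72). Of the 10 feedback genes 5 rose and 2 fell, against 6.01% and 7.77% of all genes tested. The same numbers held without the third induced library, against 15.3% and 17.2% of all genes. Those that fell were the family member TP73 (-1.06 ± 0.17) and TRIM24 (-0.31 ± 0.08), a ligase for p53.

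Genes of cell cycle arrest responded unevenly. CDKN1A (ENSG00000124762, chr6:36676460-36687339, plus strand) stood at 91.3, 91.8 and 85.7 CPM in the non-induced libraries and 380.4, 332 and 343 CPM in the induced ones (1.95 ± 0.07, adjusted p = 1.06e-06). All induced libraries were higher and lay close together. BTG2, an antiproliferative factor that speeds mRNA decay, went from 1.97, 1.48 and 2.32 CPM to 29.2, 28.7 and 25.8 CPM (3.89 ± 0.15). PLK3, a stress kinase, rose by 1.77 ± 0.11. GADD45A, which binds CDK1 and PCNA, stood at 70.3, 67.7 and 63.3 CPM in the non-induced libraries and 129, 133 and 191 CPM in the induced ones (1.14 ± 0.15), and the third induced library was the highest. ZMAT3, an RNA-binding splicing regulator, rose by 0.68 ± 0.08 and the atypical cyclin CCNG2 by 0.61 ± 0.10. Of 14 tested arrest genes 6 rose, 1 fell and 7 did not pass, and without the third induced library 8 rose and 2 fell of 15. The shares over all genes were 6.01% higher and 7.77% lower, or 15.3% and 17.2% without that library. E2F7, a repressor of E2F targets that is itself listed as a p53 target, fell by 0.60 ± 0.09. GADD45B, BTG1 and PLK2, relatives of responding genes, were at -0.18, 0.07 and -0.11 and did not pass.

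**Figure D3:**
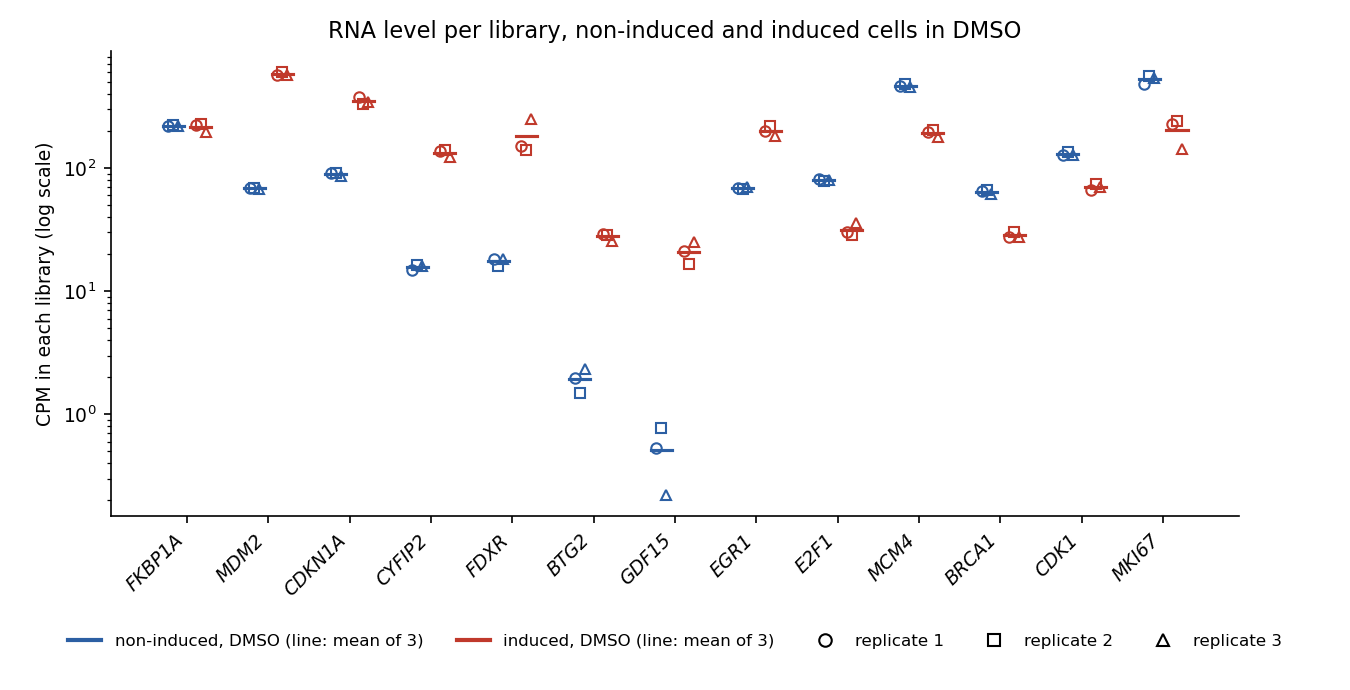
CPM in each of the 6 DMSO libraries (log scale) for 13 genes, with the mean of each group as a line. MDM2, CDKN1A, CYFIP2 and BTG2 sit clear of the non-induced libraries, E2F1, MCM4, BRCA1 and CDK1 sit below them, and the third induced library is apart for FDXR and MKI67.

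In the mitochondrial branch 11 of 20 genes rose and 1 fell, against 6.01% and 7.77% of all genes tested. Without the third induced library 15 rose and 2 fell, against 15.3% and 17.2%. The BH3-only factor BBC3 (PUMA) went from 4.93, 3.63 and 4.75 CPM to 16.4, 13.7 and 15.1 CPM (1.75 ± 0.15) and its relative PMAIP1 (NOXA) from 30.8, 29.4 and 31 CPM to 74.4, 68.5 and 91.1 CPM (1.34 ± 0.12). BAX, which forms pores in the outer mitochondrial membrane, stood at 55.9, 53.5 and 59.6 CPM in the non-induced libraries and 103, 95.9 and 114 CPM in the induced ones (0.87 ± 0.09, adjusted p = 0.000303). In these 3 genes every induced library lay above every non-induced one. The same held for 14 of the 20 genes of the list and for 21.2% of all genes tested. APAF1, the scaffold of the apoptosome, rose by 0.62 ± 0.09. CYFIP2, a regulator of actin, rose from 14.8, 16.4 and 16 CPM to 137, 141 and 123 CPM (3.07 ± 0.08), and TP53I3, a quinone oxidoreductase, from 21.1, 20.9 and 20.3 CPM to 84.3, 76.7 and 74.1 CPM (1.89 ± 0.08).

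Survival genes were mixed. BCL2, the founding inhibitor of the pathway, fell from 8.95, 10.2 and 9.28 CPM to 5.78, 6.51 and 7.12 CPM (-0.58 ± 0.13, adjusted p = 0.0203), MCL1 rose by 0.30 ± 0.06, and BCL2L1 at 0.25 ± 0.08 did not pass (adjusted p = 0.0774). The apoptosis inhibitor TRIAP1 rose by 0.71 ± 0.12. BID, BAK1 and PERP were at -0.01, 0.17 and 0.08 and did not pass. SIVA1 depended on 1 library: it stood at 54.7, 51.1 and 89.6 CPM in the induced cells against 78.8, 76.4 and 70.0 CPM, a difference of -0.23 that did not pass, and without the third induced library it fell by 0.55.

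In the receptor branch 4 of 6 tested genes rose and 0 fell, against 6.01% and 7.77% of all genes tested. The counts were 4 and 0 without the third induced library, against 15.3% and 17.2%. At an unadjusted p below 0.05, and with DESeq2, 0 fell as well. FAS, the receptor for Fas ligand, went from 9.52, 9.68 and 9.05 CPM to 26.4, 28.6 and 24.5 CPM (1.46 ± 0.10, adjusted p = 3.01e-05). The TRAIL receptor TNFRSF10B rose from a mean of 98.9 to 162 CPM (0.68 ± 0.06) and the decoy receptor TNFRSF10D by 0.86 ± 0.09. TNFRSF10A rose by 0.38 ± 0.09, with a narrower gap of 34.1, 37.7 and 35 CPM against 43.5, 46.1 and 51.6 CPM. CASP8, the caspase that these receptors activate, was at 0.08 ± 0.10 and did not pass. ACTA2, smooth muscle actin, overlaps FAS on the other strand and went from 3.03, 3.86 and 3.42 CPM to 26.5, 24.8 and 21.9 CPM (2.80 ± 0.13), and whether strand was used to count reads is not given in the sources used here.

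Of 12 genes of nutrient and autophagy control 4 rose and 0 fell, against 6.01% and 7.77% of all genes tested. The counts were 6 and 0 without the third induced library, against 15.3% and 17.2%. DRAM1, a lysosomal membrane protein that promotes autophagy, went from 12.3, 13.9 and 13.9 CPM to 38.1, 38.7 and 38.2 CPM, a rise to 2.83-fold (adjusted p = 1.98e-05). The sestrins SESN1 and SESN2, which restrain mTORC1, rose from 14.1, 16.2 and 19.4 CPM to 36.4, 39.8 and 33.9 CPM (1.14 ± 0.12) and from 36.1, 35.9 and 35.8 CPM to 72.7, 74.5 and 76.6 CPM (1.03 ± 0.07), while SESN3 at 0.20 ± 0.14 did not pass. DDIT4, a further inhibitor of mTORC1, rose by 0.43 ± 0.09. The AMPK subunits PRKAB1 and PRKAB2 were at 0.28 and 0.22 and passed without the third induced library (0.42 and 0.29).

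The metabolic targets rose in 7 of 13 cases and fell in 0, against 6.01% and 7.77% of all genes tested. The counts were 9 and 0 without the third induced library, against 15.3% and 17.2%. FDXR, a mitochondrial reductase that feeds electrons to ferredoxins, stood at 18.4, 16 and 18.4 CPM in the non-induced libraries and 153, 141 and 249 CPM in the induced ones. The third induced library was far above its partners, and the change was 3.35 ± 0.23 with it and 3.04 without it. FUCA1, a lysosomal fucosidase, went from 23.4, 21.1 and 23.6 CPM to 54.7, 55.2 and 52.4 CPM (1.23 ± 0.08). SAT1, which acetylates polyamines, rose by 0.99 ± 0.15, and ABCA1, a cholesterol exporter, by 0.56 ± 0.10. TIGAR, which lowers glycolytic flux, rose from 5.8, 5.58 and 5.63 CPM to 9.56, 10.7 and 7.8 CPM (0.69 ± 0.14). GLS2, the liver-type glutaminase, was at 0.90 ± 0.30 (adjusted p = 0.0837) from 0.759, 0.897 and 0.994 CPM, and SCO2, needed for cytochrome oxidase assembly, at -0.05 ± 0.12. Neither passed.

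DNA repair targets moved in both directions. The nucleotide excision repair sensors DDB2 and XPC went from 12.6, 12.9 and 14.6 CPM to 46.1, 40.4 and 37.5 CPM (1.62 ± 0.10) and from 47, 46.2 and 46.4 CPM to 97.4, 95 and 105 CPM (1.06 ± 0.07). RRM2B, the p53-inducible subunit of ribonucleotide reductase, rose by 0.51 ± 0.06 and the translesion polymerase POLH by 0.30 ± 0.08. FANCC, of the Fanconi core complex, fell by 0.55 ± 0.09. RPS27L, a ribosomal protein paralogue that binds MDM2, stood at 145, 147 and 77.6 CPM in the induced libraries against 49.2, 51.7 and 53.9 CPM. The third induced library was much closer to the non-induced range than its partners, and the change was 1.23 with it and 1.47 without it. In all 5 of 10 repair genes rose and 2 fell, against 6.01% and 7.77% of all genes tested. The counts were 6 and 2 without that library, against 15.3% and 17.2%.

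Secreted and surface products were led by GDF15, a stress cytokine of the TGF-beta family. It stood at 0.531, 0.78 and 0.221 CPM in the non-induced libraries and 21.1, 16.6 and 25.3 CPM in the induced ones, 5.13 ± 0.28 higher (adjusted p = 1.37e-05). The non-induced libraries held 14, 20 and 2 counts of GDF15, the last below the floor of 3 counts, so the fold is imprecise. Induced libraries were all at least an order of magnitude above the non-induced ones. The lipid transfer protein PLTP rose by 0.71 ± 0.08, the EGFR ligand TGFA by 0.39 ± 0.08 and the matrix proteoglycan VCAN by 1.23 ± 0.32. THBS1, an inhibitor of angiogenesis that is listed as a p53 target, fell from 68.3, 62.2 and 58.1 CPM to 37.9, 35.7 and 37.7 CPM (-0.79 ± 0.08). IGFBP3, which sequesters insulin-like growth factors, overlapped between groups at 1.25, 0.78 and 0.331 CPM against 0.482, 1.2 and 0.339 CPM (adjusted p = 0.668). Of 11 tested 4 rose and 1 fell, with 5 and 1 without the third induced library. Over the 8 lists of protein-coding p53 targets joined, 46 of 96 tested genes rose, 7 fell and 43 did not pass, with a median of 0.30 against 0.01 over all genes tested. Without the third induced library 58 rose and 9 fell of 97. Beside these counts and those of the secreted list, 6.01% of all genes tested rose and 7.77% fell. Without that library the shares were 15.3% and 17.2%.

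**Figure D4:**
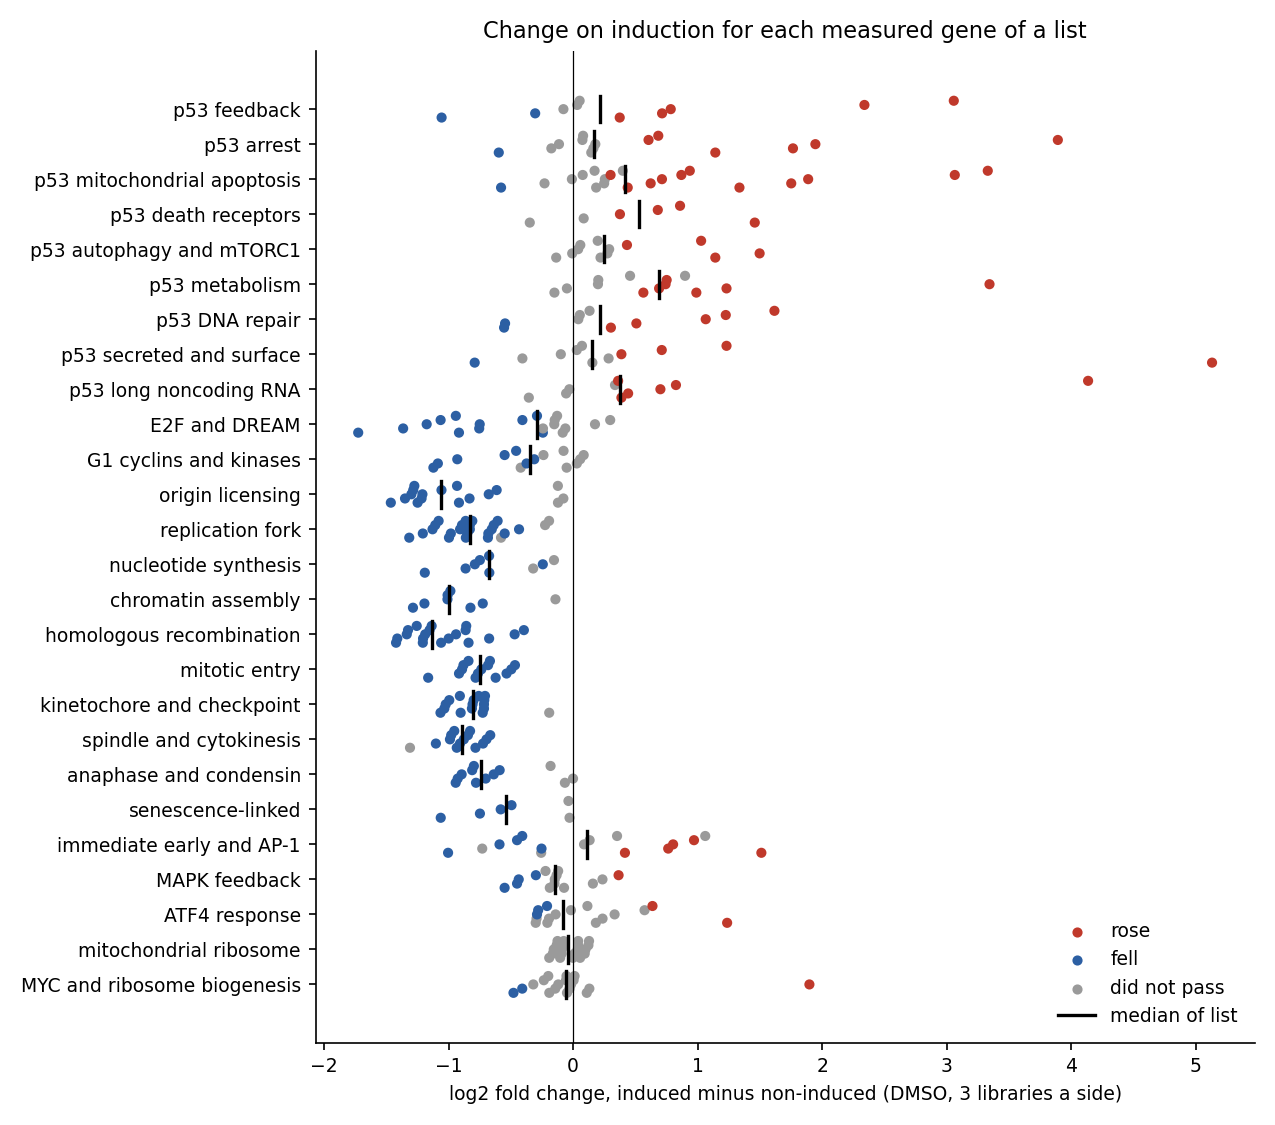
Log2 fold change on induction in DMSO for each tested gene of 26 lists, with the median of each list as a bar. Members of the p53 lists spread from falls to large rises, and the replication, recombination and mitosis lists lie below 0.

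Long noncoding RNAs linked to p53 rose in 6 of 10 cases and fell in 0, against 6.01% and 7.77% of all genes tested. The counts were the same without the third induced library, against 15.3% and 17.2%. MIR34AHG, the host transcript of the miR-34a precursor, had 0.0759, 0.039 and 0 CPM in the non-induced libraries and 1.32, 0.981 and 0.594 CPM in the induced ones, so the non-induced level lay below the floor of 3 counts in every library and no fold is given. NEAT1, the scaffold of paraspeckles, went from 55.6, 51.7 and 45 CPM to 82.8, 87.3 and 83.3 CPM (0.70 ± 0.08). TP53TG1 rose by 0.83 ± 0.11, MIR22HG by 0.44 ± 0.08 and the snoRNA host GAS5 by 0.36 ± 0.08. TUG1, at -0.03 ± 0.07, did not pass. In this list and those of autophagy and metabolism, DESeq2 and an unadjusted p below 0.05 gave 0 falls too.

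Genes that drive entry into S phase fell in part. The activating E2F factors E2F1 and E2F2 went from 82.1, 78.4 and 79.5 CPM to 30.3, 28.6 and 35.8 CPM (-1.37 ± 0.10) and from 48.5, 52.5 and 53 CPM to 14.7, 15.5 and 17.1 CPM (-1.73 ± 0.09, adjusted p = 1.37e-05). E2F2 was left at 30.2% of its non-induced level. FOXM1 and MYBL2, which drive mitotic genes, fell by 1.06 ± 0.09 and by 0.92 ± 0.08. Of the pocket proteins RBL1 fell by 0.94 ± 0.09, whereas RB1 (-0.08 ± 0.07) and RBL2 (-0.06 ± 0.07) did not pass. Of the 19 E2F and DREAM genes 11 fell and 0 rose, with 13 and 0 without the third induced library and a median of -0.29. The shares over all genes were 7.77% lower and 6.01% higher, or 17.2% and 15.3% without that library.

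The cyclins and kinases of G1 gave falls and no rise. CDK2, which phosphorylates RB1 at the start of S phase, went from 96.5, 95.7 and 83.8 CPM to 47.6, 44.8 and 40.2 CPM (-1.09 ± 0.08). Its cyclin CCNE2 fell by 1.12 ± 0.12, and CCNE1 at -0.24 ± 0.12 did not pass. The activating phosphatase CDC25A fell by 0.93 ± 0.10 and CCND1, the growth factor-responsive cyclin, from 822, 780.2 and 781 CPM to 536, 546 and 574 CPM (-0.55 ± 0.06). The inhibitors CDKN1B and CDKN2B were at 0.03 and 0.06 and did not pass. Of 14 genes 7 fell and 0 rose, against 7.77% and 6.01% of all genes tested. The counts were 9 and 0 without the third induced library, against 17.2% and 15.3%. In this list and the E2F and DREAM list, DESeq2 and an unadjusted p below 0.05 gave 0 rises too.

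Of 59 genes in the lists for origin licensing, the replication fork, nucleotide synthesis and chromatin assembly 50 fell (median -0.85), against 7.77% of all genes tested. Without the third induced library 55 fell, against 17.2%. None rose in edgeR or in DESeq2, and none did at an unadjusted p below 0.05. The licensing factor CDT1 went from 153, 155 and 152 CPM to 58.6, 60.9 and 64.2 CPM (-1.35 ± 0.06) and CDC6 from 72.5, 69.1 and 64.4 CPM to 26.6, 28.8 and 33 CPM (-1.25 ± 0.10). DTL, which marks CDT1 for destruction, went from 85.1, 88.2 and 82.5 CPM to 30.6, 32.8 and 31.1 CPM (-1.47 ± 0.07). All 6 subunits of the MCM2 to MCM7 helicase fell. MCM4 had the largest change of them (-1.30 ± 0.06) and MCM6 the smallest (-0.83 ± 0.06). ORC1 and ORC6 of the origin recognition complex fell (-1.28 ± 0.07 and -0.93 ± 0.09), whereas ORC2, ORC4 and ORC5 at -0.12, -0.12 and -0.08 did not pass.

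At the fork and beyond, the checkpoint mediator CLSPN went from 121, 115 and 119.8 CPM to 49.8, 55.8 and 51.4 CPM (-1.21 ± 0.07) and the primase subunit PRIM1 from 25.8, 25.8 and 26.7 CPM to 11.2, 12.4 and 8.31 CPM (-1.32 ± 0.14). RRM2, the S phase subunit of ribonucleotide reductase, went from 529, 526 and 506 CPM to 212, 242 and 241 CPM (-1.19 ± 0.07), opposite in direction to its relative RRM2B. The histone chaperones CHAF1B and ASF1B fell by 1.29 ± 0.07 and 1.20 ± 0.07, and the maintenance methyltransferase DNMT1 by 0.73 ± 0.06. PCNA, the sliding clamp, stood at 281, 283 and 276 CPM in the non-induced libraries and 246, 231 and 271 CPM in the induced ones. Its groups did not overlap, but the difference of -0.19 ± 0.07 did not pass (adjusted p = 0.12), while without the third induced library it fell by 0.27.

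Homologous recombination and crosslink repair fell in 19 of 19 genes, with a median of -1.14, and 19 of 19 also without the third induced library. The share of all genes that fell was 7.77%, or 17.2% without that library. No member rose at an unadjusted p below 0.05 or with DESeq2. BRCA1 went from 65.7, 66.6 and 61.5 CPM to 27.5, 30.3 and 27.8 CPM (-1.21 ± 0.07) and BRCA2 from 25.2, 28 and 27.4 CPM to 10.2, 11.7 and 8.9 CPM (-1.41 ± 0.11). XRCC2, which acts in strand exchange, went from 45.8, 48.1 and 45.8 CPM to 17.6, 19.9 and 15.8 CPM (-1.42 ± 0.09). The helicase BLM fell by 1.26 ± 0.10 and the nuclease EXO1 by 1.19 ± 0.09. PALB2, which joins BRCA1 to BRCA2, had the smallest change, from 19, 19.6 and 20.8 CPM to 16.1, 15.4 and 14.3 CPM (-0.40 ± 0.09).

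Mitotic genes fell as well. Of 56 tested genes in 4 lists 51 fell (median -0.80), against 7.77% of all genes tested. Without the third induced library 56 fell, against 17.2%. None rose in edgeR, in DESeq2 or at an unadjusted p below 0.05. CDK1, the kinase that starts mitosis, went from 129, 135 and 128 CPM to 66.6, 74.2 and 70.6 CPM (-0.92 ± 0.07). CCNA2 went from 149, 152 and 150.5 CPM to 85.7, 85.3 and 85.3 CPM (-0.84 ± 0.05), and CCNB1 from 296, 282 and 282 CPM to 198, 194 and 241 CPM (-0.47 ± 0.09). The checkpoint kinase TTK fell by 1.03 ± 0.09 and the kinetochore proteins KNL1 and NDC80 by 0.91 ± 0.06 and 0.80 ± 0.06. The motor KIF23 and the exchange factor ECT2, both of cytokinesis, fell by 0.99 ± 0.06 and 0.88 ± 0.06. TOP2A, which untangles sister chromatids, went from 426, 441 and 442 CPM to 245, 253 and 269 CPM (-0.80 ± 0.06).

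The 5 mitotic genes that did not pass were BUB3, PRC1, UBE2S, PTTG1 and FZR1, and 1 library decided several of them. PRC1 belongs to the spindle and cytokinesis list, where changes ran from -1.31 to -0.67. In 14 of its 14 tested genes the induced libraries lay lower without overlap, against 16.0% of all genes tested. PTTG1, the securin that holds separase, stood at 172, 177 and 268 CPM in the induced libraries against 213, 213 and 211 CPM. The third induced library was above the non-induced ones and its partners below them, and without it PTTG1 fell by 0.32. UBE2S, of the anaphase-promoting complex pathway, gave 146, 156 and 231 CPM against 173, 176 and 175 CPM and fell by 0.25 without that library. MKI67, the proliferation antigen, moved the other way in it: it stood at 483, 562 and 544 CPM in the non-induced libraries and 230.0, 243 and 142 CPM in the induced ones, a change of -1.40 ± 0.17 with the library and -1.20 without it.

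Nuclear proteins that are known to decline in senescence also fell. HMGB2 went from 183, 205 and 189 CPM to 93.1, 97.9 and 90.2 CPM (-1.06 ± 0.07) and the lamin LMNB1 from 232, 240.0 and 218 CPM to 123, 133 and 162 CPM (-0.75 ± 0.10). LMNB2 and HMGB1 fell by 0.58 ± 0.08 and 0.50 ± 0.10. Below the filter were 6 of the 12 members of that list, among them the secreted factors IL6, CXCL8 and IL1B. CDKN2A stood at 68.6, 65.1 and 102 CPM against 81, 76.7 and 80.2 CPM and did not pass (adjusted p = 0.903). Of 6 tested genes 4 fell and 0 rose, against 7.77% and 6.01% of all genes tested. The count of 0 rises also held at an unadjusted p below 0.05 and with DESeq2.

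Growth factor-responsive genes moved in both directions. EGR1, an immediate early transcription factor, stood at 69.1, 68.2 and 70.6 CPM in the non-induced libraries and 201, 222 and 181 CPM in the induced ones (1.51 ± 0.08, adjusted p = 8.74e-06), and no induced library came near the non-induced range. ATF3 rose by 0.76 ± 0.12 and KLF4 by 0.80 ± 0.16. FOSL1, an AP-1 subunit tied to ERK signalling, fell from 301, 336 and 303 CPM to 159, 174 and 144 CPM, to 49.8% of its non-induced level, and KLF6 fell by 0.59 ± 0.08. FOS and JUN, at 0.35 ± 0.12 and -0.26 ± 0.09, did not pass. Of 16 immediate early genes 5 rose and 5 fell, with 7 and 6 without the third induced library. Among 14 genes of MAPK feedback 4 fell (CCND1, PHLDA1, IER3 and SPRY4) and 1 rose (DUSP14), and without that library 4 fell and 3 rose. Over all genes tested 6.01% rose and 7.77% fell, and without that library 15.3% rose and 17.2% fell.

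Most stress and housekeeping lists held calls in both directions or none. The shares over all genes tested were 6.01% higher and 7.77% lower, or 15.3% and 17.2% without the third induced library. In the ATF4 response 2 genes rose and 3 fell of 16, against 13.8% of all genes called, and without the third induced library 4 rose and 5 fell. The pseudokinase TRIB3 went from 15.1, 17.2 and 15.8 CPM to 33.8, 34.7 and 47.1 CPM (1.24 ± 0.15) and DDIT3 (CHOP) from 9.48, 8.78 and 7.73 CPM to 14.5, 15.5 and 11.8 CPM (0.64 ± 0.13), while ATF4 itself at -0.02 ± 0.08 did not pass. Of 20 mitochondrial ribosome genes 0 were called in edgeR or DESeq2, with 2 lower at an unadjusted p below 0.05, and without the third induced library 4 fell and 0 rose. TFRC, the transferrin receptor, fell from 180.4, 177 and 172 CPM to 99.4, 105 and 105 CPM (-0.80 ± 0.06), and the interferon-induced OAS3 fell by 0.78 ± 0.09. ANGPTL4, an inhibitor of lipoprotein lipase, rose from 39.8, 37.9 and 34.6 CPM to 138, 139.6 and 164 CPM (1.95 ± 0.10), while its list of hypoxia and glycolysis genes had 3 rises and 3 falls of 14, and 3 and 5 without the third induced library. MYC fell from 147, 147 and 143 CPM to 119, 117 and 98.5 CPM (-0.41 ± 0.07), and 1 of 18 genes of the MYC and ribosome list rose and 2 fell, against 1 and 14 without the third induced library. The gene that rose was NOP56, from 246.2, 249.2 and 225.2 CPM to 942.9, 910.9 and 883.5 CPM (1.90 ± 0.07). The 15 mitochondrially encoded genes gave 0 calls in edgeR or DESeq2 and 0 at an unadjusted p below 0.05. Without that library 4 of the 15 rose and 2 fell, and their median was 0.02 in place of -0.37.

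Among the named genes that did not pass, 17 passed without the third induced library, in the fit whose much smaller p-values were not explained. They were BAK1, BCL2L1, FOS, GLS2, PERP, PRKAB1 and PRKAB2, which were then higher, and CDH2, CDKN2A, GADD45B, JUN, KAT2A, PCNA, PTTG1, SIVA1, UBE2S and ZEB1, which were then lower.

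The mesenchymal markers of the line fell in part. VIM went from 3607, 3729 and 3876 CPM to 2836, 2804 and 2366 CPM (-0.51 ± 0.08) and AXL, a receptor tyrosine kinase, from 495, 501 and 479 CPM to 319.7, 335 and 359.9 CPM (-0.56 ± 0.07). FN1 fell by 0.30 ± 0.08, and CDH2 and ZEB1 at -0.25 and -0.31 did not pass. KAT2B, which encodes the acetyltransferase PCAF, stood at 76.1, 75.7 and 75.5 CPM in the non-induced libraries and 119.8, 119 and 91.4 CPM in the induced ones (0.51 ± 0.10, adjusted p = 0.00888). Its relatives KAT2A (GCN5), EP300 and CREBBP were at -0.26, -0.08 and -0.09 and did not pass.

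Several of the largest changes lay outside all of these lists. RALGPS2, an exchange factor for Ral GTPases, stood at 9.6, 9.48 and 9.5 CPM in the non-induced libraries and 101, 98.2 and 98 CPM in the induced ones (3.35 ± 0.07). RALGPS2-AS1, the noncoding gene on its other strand, went from 0.0379, 0 and 0.552 CPM to 55.4, 49.4 and 56.6 CPM. C1orf220 went from 0.266, 0.117 and 0.11 CPM to 8.23, 9.72 and 11.5 CPM and NEFM, a neurofilament subunit, from 0.0379, 0.702 and 0.11 CPM to 9.52, 10.3 and 7.12 CPM. NPTX2, a secreted pentraxin of synapses, went from 0.569, 0.897 and 0.11 CPM to 8.03, 9.86 and 11.8 CPM. Each of these last 4 genes had 1 or 0 counts in at least 1 non-induced library, so no fold is given. PCED1A went from 20.4, 21.6 and 23.7 CPM to 308, 289 and 319 CPM (3.79 ± 0.08), and VPS16, a vesicle sorting gene that overlaps it on the other strand, rose by 2.14 ± 0.12. Use of strand in counting is not given, so reads of PCED1A and VPS16, or of RALGPS2 and RALGPS2-AS1, may not be apart. Among the largest falls TMEM158, a gene known to respond to RAS, went from 82, 82.1 and 85.1 CPM to 26.7, 29.8 and 35.8 CPM (-1.46 ± 0.11) and FAM111B, a protease, from 59.1, 65 and 64.6 CPM to 22, 26 and 22.9 CPM (-1.44 ± 0.09). RMI2, of the BLM complex, and the zinc finger gene ZNF488 fell by 1.39 ± 0.17 and 1.35 ± 0.16.

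The 12 libraries with a compound share no sample with the DMSO ones, and the same induction was measured in them. With the p300/CBP compound 2433 genes rose (16.4% of 14844) and 2411 fell (16.2%). With the PCAF/GCN5 compound 1735 rose (11.4% of 15236) and 1911 fell (12.5%). Of the 905 genes that rose in DMSO, 749 also rose with the p300/CBP compound (82.8% of the DMSO set and 30.8% of the other) and 676 with the PCAF/GCN5 compound (74.7% and 39.0%). Of the 1170 that fell, 1025 (87.6% and 42.5%) and 959 (82.0% and 50.2%) fell again. A single gene was called in the opposite direction, and 621 genes rose and 903 fell in all 3 settings.

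The induction effect itself differed between DMSO and a compound for few genes. The interaction, effect with compound minus effect in DMSO, was called for 200 genes (1.28%) with the p300/CBP compound and for 11 (0.0696%) with the PCAF/GCN5 compound. It was higher for 170 genes (1.09% of 15618) and lower for 30 (0.192%) with the p300/CBP compound, and for 10 (0.0632% of 15813) and 1 (0.00632%) with the PCAF/GCN5 compound. Without the third induced DMSO library the first comparison called 299 genes higher and 133 lower in place of 170 and 30, or 432 in place of 200, and the second called 24 in place of 11. With no filter on low counts the first gave 260 higher and 156 lower, and with DESeq2 221 and 66. The p53 target lists held 27 of 97 tested genes with a higher effect with the p300/CBP compound and 9 of 98 with the PCAF/GCN5 compound. With DESeq2 these counts were 31 and 19, and at an unadjusted p below 0.05 they were 46 and 30. No p53 target was lower in edgeR or DESeq2, and 1 was lower at an unadjusted p below 0.05 in each. Of 59 replication genes 3 had a higher effect with the p300/CBP compound, in edgeR and in DESeq2 (PCNA, TYMS and ORC4), and 0 a lower one, with 2 lower at an unadjusted p below 0.05. Of 56 mitotic genes 0 differed with the p300/CBP compound in edgeR or DESeq2, and 6 did at an unadjusted p below 0.05. At 1.28% called over all genes, a count of 0 in a list of this size is near the background.

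**Figure D5:**
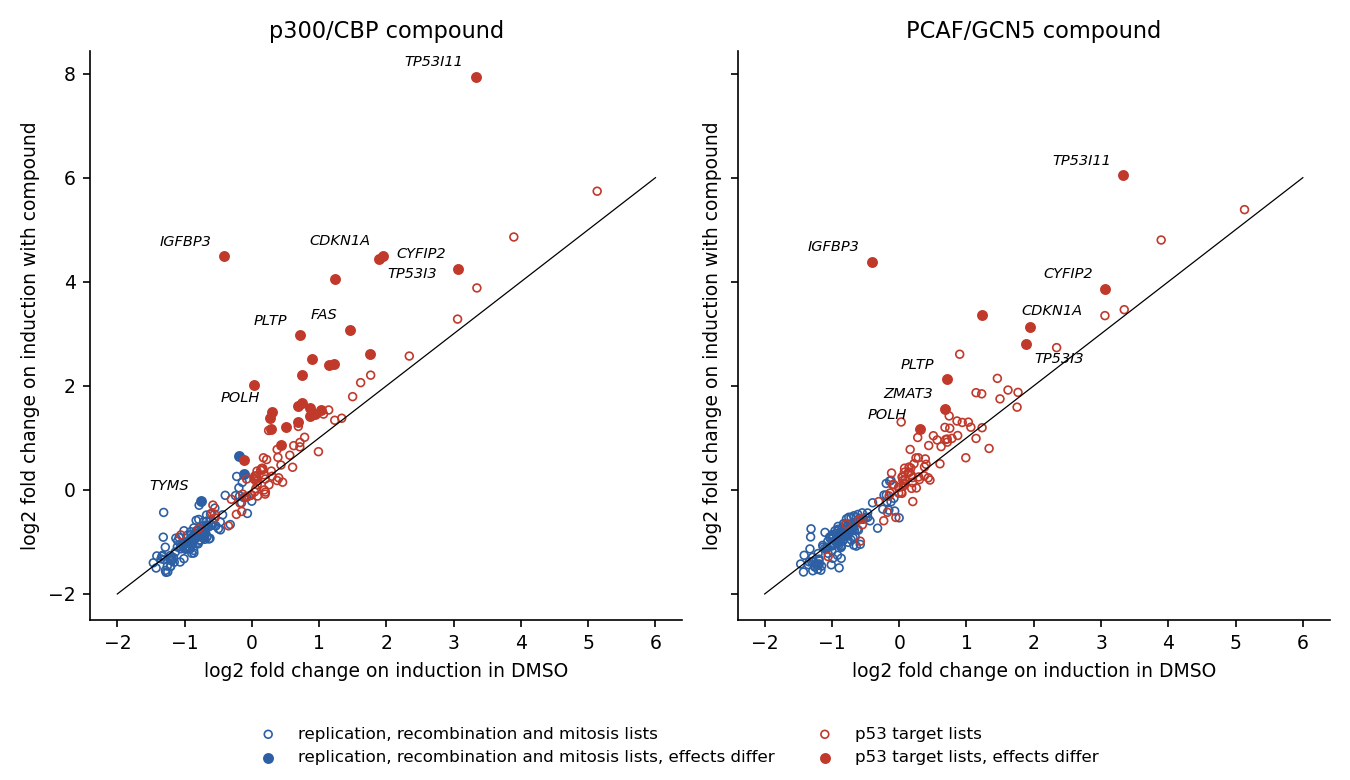
Log2 fold change on induction with each compound against that in DMSO, for genes of the p53 target lists and of the replication, recombination and mitosis lists. Filled points have effects that differ in the interaction test, 27 p53 targets and 3 replication genes with the p300/CBP compound and 9 p53 targets with the PCAF/GCN5 compound, and the line marks equal effects.

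CDKN1A was the anchor that differed most. Its induction was 1.95 in DMSO, 4.50 with the p300/CBP compound and 3.13 with the PCAF/GCN5 compound. The differences from DMSO were 2.56 ± 0.09 (adjusted p = 8.99e-11) and 1.17 ± 0.10 (adjusted p = 2.7e-05). Non-induced cells stood at 105 ± 4.66 CPM and 92.5 ± 5.44 CPM with the compounds (SD, n = 3), close to the DMSO level, and induced cells at 2390.0 ± 59.6 CPM and 831 ± 26.7 CPM. MDM2 differed from DMSO by 0.23 ± 0.08 (adjusted p = 0.268) and 0.28 ± 0.11 (adjusted p = 0.658) and did not pass. TP53I3 and FAS rose by 1.89 and 1.46 in DMSO and by 4.44 and 3.08 with the p300/CBP compound. ANGPTL4 went the other way, from 1.95 in DMSO to 1.10 with the p300/CBP compound and 0.63 with the PCAF/GCN5 compound.

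IGFBP3 and PCNA, singled out after their values were seen, did not pass in DMSO. IGFBP3 reached 14.7 ± 0.851 CPM in induced cells with the p300/CBP compound and 13.9 ± 3.24 CPM with the PCAF/GCN5 compound, where non-induced cells had 0.658 ± 0.408 CPM and 0.636 ± 0.135 CPM. PCNA went from 199.9 ± 4.75 CPM to 316 ± 7.58 CPM with the p300/CBP compound, a rise of 0.65 where DMSO gave -0.19. Its difference of 0.85 ± 0.09 passed (adjusted p = 8.69e-05).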

How the data were processed

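Total RNA libraries were made with a directional kit, and the submitters' processing notes name StringTie and DESeq2, with no versions. The aligner, annotation, genome build and use of strand in counting are not given in the sources used here. Per the file headers, the deposited tables hold raw counts per gene for each library, and these counts were the only measurements used. The authors also deposited each gene's length, an other kind of value, in bases. A further 30 columns of values per sample (scaled counts or repeats of the same counts) were not used. ANK2 was left out because its row is broken in 1 table, which left 60622 genes. Positions in the files matched GENCODE release 29 (GRCh38) for 79.7% of 58515 shared identifiers.

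Groups follow the labels. Counts were fitted with edgeR 4.0.16 in R 4.3.3 (TMM, filterByExpr, quasi-likelihood F test, 2-sided, Benjamini-Hochberg over all genes tested, call below 0.05), on the groups of each comparison only. The SE is the size of the log2 fold change over the square root of F. The median change of all genes tested was 0.01. Some genes are not reported here. The fit was tested on simulated data. Alternatives were DESeq2 1.42.0, RLE size factors, no filter, all 6 groups in 1 fit, the replicate number as a block and leaving out each library. The members and the 40 gene lists were chosen with earlier results of these data known, so list counts are descriptions. Named genes are FKBP1A, MDM2 and CDKN1A, in each list up to 4 called members with the smallest p, members against the rest of the list and role-defining members that did not pass, the 10 largest rises and 10 largest falls among called genes of at least 5 CPM without overlap, and up to 6 genes in each direction of each interaction. A further 27 of the 201 were named after their values were seen: APAF1, BAX, CCNB1, CCNG2, CDC6, GADD45A, GAS5, KLF4, MCL1, MCM6, MYBL2, ORC1, ORC6, PALB2, PMAIP1, PRIM1, RBL1, RPS27L, TIGAR, TRIAP1, VCAN, TP53I11, CPM, VPS16, IGFBP3, PCNA and FANCC. Promoter motifs were counted in Python 3.11.15.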

Additional observations from a re-analysis of the deposited data

Results flagged for a closer look

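The effect of induction differed between DMSO and a compound for several genes named above, by the interaction test of edgeR with adjusted p below 0.05. Values are the log2 fold change on induction with the compound minus that in DMSO.

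With the p300/CBP compound the arrest and feedback genes gave 2.56 ± 0.09 for CDKN1A and 0.93 ± 0.10 for ZMAT3. Apoptosis genes gave 2.56 ± 0.08 for TP53I3, 4.61 ± 0.54 for TP53I11, 1.19 ± 0.10 for CYFIP2, 0.85 ± 0.18 for BBC3, 0.53 ± 0.12 for AEN and 0.70 ± 0.15 for BAX. The death receptors gave 1.63 ± 0.14 for FAS, 0.62 ± 0.08 for TNFRSF10B and 0.57 ± 0.11 for TNFRSF10D, and the sestrins 1.24 ± 0.14 for SESN1 and 0.51 ± 0.08 for SESN2. Repair and replication genes gave 1.20 ± 0.11 for POLH, 0.71 ± 0.08 for RRM2B, 0.85 ± 0.09 for PCNA and 0.55 ± 0.09 for TYMS. Secreted products gave 4.95 ± 0.60 for IGFBP3, 2.84 ± 0.36 for VCAN and 2.27 ± 0.11 for PLTP. Members that did not pass in DMSO gave 1.62 ± 0.34 for GLS2, 1.11 ± 0.15 for PRKAB1, 0.70 ± 0.13 for PLK2, 0.44 ± 0.10 for ORC4 and -0.68 ± 0.13 for CDKN2B. RPS27L, whose DMSO level hung on the third induced library, gave 1.20 ± 0.22. Other positive differences were 1.10 ± 0.09 for IKBIP, 0.81 ± 0.15 for ATF3 and 0.36 ± 0.08 for SLC2A1. A positive difference did not always go with a higher induced level. In DMSO and with the compound, AEN had means of 100.3 and 105.3 CPM induced and 51.5 and 37.8 CPM non-induced. SLC2A1 had 187 and 193 CPM induced and 152 and 124 CPM non-induced. TYMS, which fell in both settings, had 255 and 251 CPM induced and 420 and 287 CPM non-induced.

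Among genes called in DMSO, differences below 0 with the p300/CBP compound were -0.84 ± 0.12 for ANGPTL4, -0.82 ± 0.14 for the neurotensin receptor NTSR1, -0.53 ± 0.08 for SPRY4, -0.50 ± 0.09 for JADE2, -0.46 ± 0.09 for CCND1 and -0.43 ± 0.08 for PHLDA1. All but ANGPTL4 of these fell on induction in DMSO and fell further with the compound.

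With the PCAF/GCN5 compound the differences were 4.83 ± 0.57 for IGFBP3, 2.69 ± 0.41 for TP53I11, 2.12 ± 0.35 for VCAN, 1.40 ± 0.12 for PLTP, 1.17 ± 0.10 for CDKN1A, 0.91 ± 0.12 for TP53I3, 0.87 ± 0.12 for ZMAT3, 0.85 ± 0.12 for POLH, 0.79 ± 0.10 for CYFIP2 and -1.32 ± 0.12 for ANGPTL4. IGFBP3 and TP53I11 had as few as 3 and 4 counts in a non-induced DMSO library, so their fitted values are imprecise. IGFBP3, TP53I11, VCAN, PCNA, BAX and RPS27L were singled out after their values were seen.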

How the results depend on the processing

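No called named gene changed direction in the DMSO comparison under any of the 11 alternatives, and 150 of 201 kept their side of the threshold in each of them. Named genes lost their call in 27 to 32 cases without 1 of the non-induced libraries, in 13 without the first and 6 without the second induced library, and in 8 with the replicate block, while 17 gained one without the third induced library. The count of 2075 called genes was 3455 with all 6 groups in 1 fit, where the cause was not tested, and 869 to 5001 when 1 library was left out. Counts in the p53 target, replication, recombination and mitosis lists stayed within 1.5 times under every alternative. The interaction with the p300/CBP compound called 200 genes, 416 with no filter on low counts, where more genes were tested, and 123 to 432 with 1 library left out. It gave 125 without the second induced library with the p300/CBP compound and less still without the first non-induced DMSO library. The interaction with the PCAF/GCN5 compound called 11 genes, 49 with DESeq2, 38 with all 6 groups, 258 with no filter and 8 to 24 with 1 library left out. Directions of the no-filter calls there differed: 72 were higher and 186 lower, against 10 and 1. Of the named genes, 59 results of the first interaction and 11 of the second lost their call under an alternative. Same-numbered deviations of the libraries correlated at -0.077, 0.049 and -0.036, and other-numbered ones at -0.075 to 0.101. Values this small do not show pairing by replicate number and cannot exclude it. With the replicate block 645 genes rose and 915 fell in DMSO. Depth limits calls for low genes, most of all in the third non-induced library with 9055888 counts.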
